A study of Homo sapiens with 6 samples.

Results

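The annexins are a family of calcium-dependent membrane-binding proteins, and 9 of their genes were followed here: ANXA1, ANXA2, ANXA3, ANXA4, ANXA5, ANXA6, ANXA7, ANXA8 and ANXA11. The rule that chose the members is a list of gene names and uses no measured value, but the list was drawn up with earlier results of these data known. It leaves out scarce annexins such as ANXA10 and ANXA13, with at most 4 counts per library. All 9 had a row among the 23459 genes of the count table, and all 9 passed the filter on low counts that left 12510 genes for testing. The measurements are 3′ mRNA-Seq read counts from MCF10A cells, an untransformed line of human mammary epithelial cells, wild type (WT) by the labels. All cells were transfected with siRNA at 20 nM, in 3 libraries a control siRNA (siCtrl) and in 3 siRNA that targets both YAP and TAZ (siYAP/TAZ). YAP and TAZ, encoded by YAP1 and WWTR1, are transcriptional coactivators restrained by the Hippo pathway. The comparison asks which annexin mRNAs differed once both were lowered in part. Mean mRNA in siYAP/TAZ was 57.5% of siCtrl for YAP1 and 61.8% for WWTR1, and these libraries hold no protein level. The study's methods describe the RNA-Seq replicates as biological, while the labels of these libraries give a replicate number and no culture, so the p-values measure the spread between these libraries.

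Annexins bind acidic phospholipids on the inner face of membranes when calcium rises. Their core is a set of conserved repeats that carry the calcium sites, while the variable N-terminal tail determines the partner proteins, many of them small S100 proteins. In epithelial cells the family is known for linking membranes to the actin cortex, for vesicle traffic and for resealing torn plasma membrane. ANXA1 is also a ligand of formyl peptide receptors that dampens inflammation, and ANXA5 is used as a stain for phosphatidylserine on dying cells.

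Total counts per library were between 3175149 and 4317286. Levels are given as CPM, counts scaled by the TMM-adjusted library size. A 3′ library gives about 1 fragment per transcript whatever its length, so the levels were not divided by length. A count of 3, taken as the floor, corresponded to 0.680 to 0.992 CPM and covers counting error only. The description field, which also names the columns of the table, set the groups. Titles and genotype entries of siCtrl replicate 2 and siYAP/TAZ replicate 2 name the opposite group. On the first principal component (48.4% of the variance), siCtrl replicate 2 lay at 7.15, away from the other siCtrl libraries at -42.6 and -34.9, whereas the siYAP/TAZ libraries lay between 9.77 and 33.7. YAP1 was at 189, 204 and 210 CPM in siCtrl cells, against 116, 118 and 112 CPM in siYAP/TAZ (log2 fold change -0.80, SE 0.12, adjusted p = 0.0138 by the edgeR quasi-likelihood test with Benjamini-Hochberg adjustment). WWTR1 was at 109, 109 and 102 CPM against 70.5, 67.1 and 59.8 CPM (log2 fold change -0.69, SE 0.13, adjusted p = 0.0311). Neither targeted gene overlapped between the groups, so the library named siCtrl replicate 2 in the description field held both at control levels. Of the markers of basal mammary epithelium, 7 of 7 were detected and tested, with summed levels of 1586 to 2226 CPM in siCtrl cells, against 1335 to 1668 CPM in siYAP/TAZ. Fibroblast markers summed to 163 to 181 CPM and 218 to 229 CPM. Of these 5 genes, 2 passed the filter: DCN rose from between 5.46 and 7.41 CPM to between 34.0 and 71.2 CPM, and PDGFRA stood between 154 and 183 CPM in all 6 libraries. The 4 immune markers summed to between 3.26 and 10.2 CPM over all libraries. CD14 passed the filter, with 15, 23 and 17 counts in siCtrl cells, against 19, 15 and 9 in siYAP/TAZ. PTPRC had 2 to 10 counts per library, CD3E at most 1 and LYZ 0 in each. The 3 endothelial markers summed to 2.01 to 3.39 CPM in siCtrl cells, against 4.76 to 11.2 CPM in siYAP/TAZ. Of these, PECAM1 had 6, 4 and 4 counts against 14, 29 and 18, while VWF had 4 to 6 counts in every library and CDH5 at most 2. The part of other cell types in the annexin values was not tested.

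In siCtrl cells the annexin mRNAs spanned a wide range of levels. ANXA2, a partner of S100A10 at the plasma membrane, was the most abundant at 772 ± 169 CPM (SD, n = 3) and ranked 125 of 12510 genes by mean level over the 6 libraries. ANXA1 followed at 342 ± 39.0 CPM. ANXA8 (197 ± 67.1 CPM), ANXA5 (193 ± 53.1 CPM) and ANXA3 (157 ± 25.3 CPM) came next, and these neighbours did not differ beyond their spread. A lower tier held ANXA4 (86.0 ± 8.34 CPM), ANXA11 (77.3 ± 16.3 CPM) and ANXA7 (73.8 ± 7.30 CPM), again with overlapping ranges. ANXA6 was far below the rest at 5.60 ± 0.379 CPM, from 18 to 23 counts per library. In siYAP/TAZ cells the order was ANXA2 (590 ± 136 CPM), ANXA8 (233 ± 70.9 CPM), ANXA1 (225 ± 52.8 CPM), ANXA5 (130 ± 29.9 CPM), ANXA4 (98.6 ± 9.78 CPM), ANXA11 (68.5 ± 6.43 CPM), ANXA7 (62.2 ± 6.94 CPM), ANXA3 (42.2 ± 7.38 CPM) and ANXA6 (3.13 ± 0.583 CPM). ANXA3 thus moved from the middle tier to below ANXA7, and its highest siYAP/TAZ library (47.4 CPM) was under the lowest ANXA7 library (54.9 CPM).

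**Figure D1:**
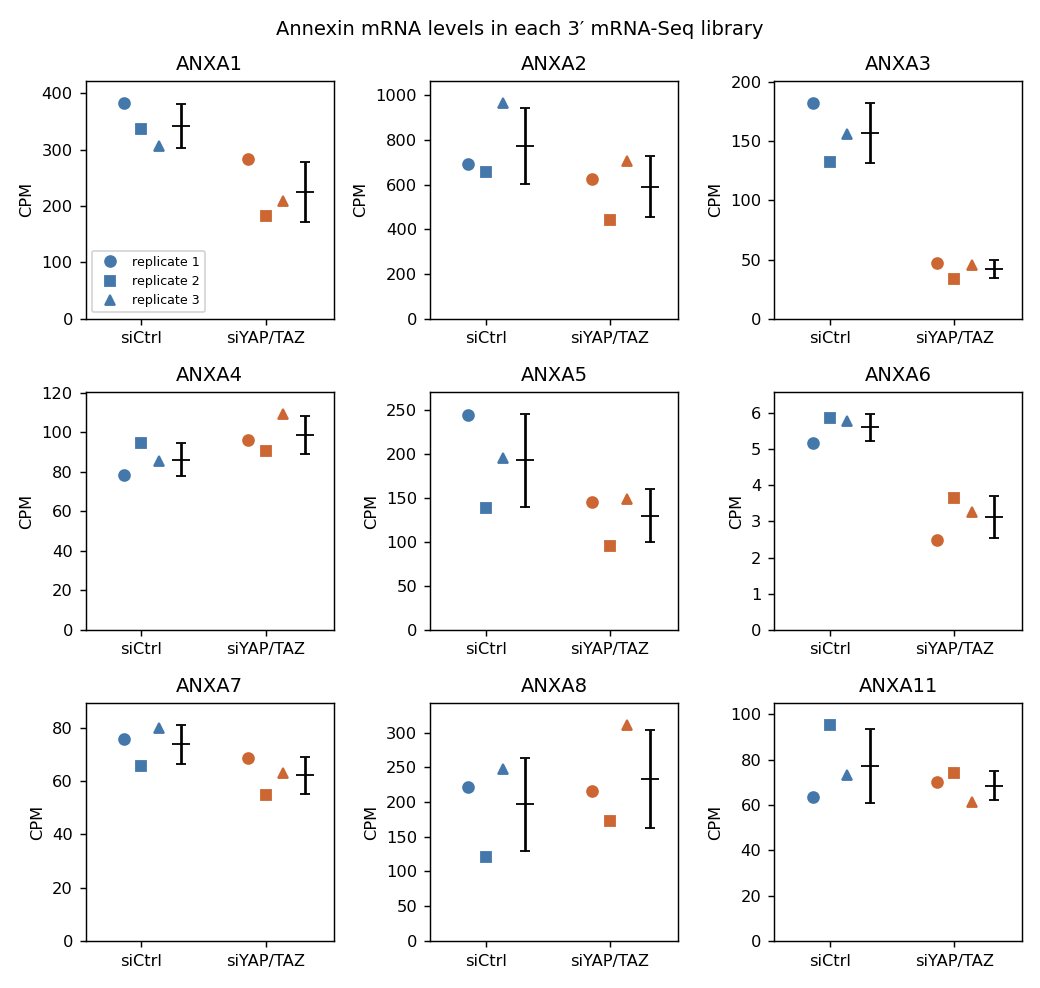
Level of each annexin mRNA in CPM (y axis, one scale per gene) in the siCtrl (blue) and siYAP/TAZ (orange) libraries, with symbols for replicates 1 to 3 and bars for mean ± SD (n = 3). ANXA3 fell from between 132 and 183 CPM to between 33.7 and 47.4 CPM, and the groups were also apart for ANXA1 and ANXA6.

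After siYAP/TAZ, 1 of the 9 annexins changed at an adjusted p below 0.05, and it fell: ANXA3. Over all genes tested the same edgeR fit called 245 of 12510 in either direction (1.96%) and 152 as lower (1.22%). No annexin rose, by edgeR or DESeq2, and none was higher at an unadjusted p below 0.05 in the edgeR fit, whereas 4 were lower at that level, beside 9.27% of all genes lower and 8.40% higher at the same level. The log2 fold change was negative for 7 members and positive for 2, with a median of -0.39, against a median of -0.00 and 50.1% negative values over all genes tested. The groups did not overlap for 3 of 9 members, all 3 of them lower (ANXA1, ANXA3 and ANXA6), beside 22.1% of all genes in either direction and 11.1% in the lower direction.

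ANXA3, an annexin first described as a phospholipase A2 inhibitor, was at 183, 132 and 156 CPM in siCtrl cells, against 47.4, 33.7 and 45.4 CPM in siYAP/TAZ replicates 1 to 3. All 3 siYAP/TAZ libraries lay under all 3 siCtrl libraries. The mean level in siYAP/TAZ was 26.9% of that in siCtrl (log2 fold change -1.89, SE 0.18, 95% interval -2.29 to -1.49, adjusted p = 0.00315, edgeR). In bulk RNA, fewer cells that express the gene and less of its RNA per cell cannot be told apart. The counts behind these levels were 636, 428 and 620 for siCtrl, against 209, 102 and 167 in siYAP/TAZ. By p-value ANXA3 ranked 4 of 12510 genes, and by the size of its fall it ranked 23. ANXA3 is also on the list of siYAP/TAZ-lowered genes that the study drew from these libraries, which is no independent evidence of its direction. It was called in 14 of 15 alternative settings, with log2 fold changes between -1.99 and -1.75. The exception grouped the libraries by title (log2 fold change -0.74, adjusted p = 0.898), a grouping in which YAP1 (log2 fold change -0.26, adjusted p = 0.904) and WWTR1 (-0.22, adjusted p = 0.905) were not called either. Leaving out siCtrl replicate 2 gave -1.99, and leaving out both libraries with conflicting labels gave -1.86.

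The promoters of ANXA3, ANXA1 and ANXA2 are shown. ANXA3 is the member that fell, ANXA1 fell once replicates were paired, and the ANXA2 promoter holds a match to a motif searched for. ANXA5 also fell once replicates were paired, and its promoter is not printed. RefSeq promoter windows (assembly GRCh38.p14, 250 bases before to 50 bases after a start) matched 8 of the 9 members with 12 windows. The TEAD-type motif CATTCC, read on both strands, was in 0 of these 12 windows and in 14.03% of all 35116 windows. The AP-1-type motif TGANTCA, which reads the same on both strands, was in 1 of 12 annexin windows and in 7.71% of all windows. No window of an annexin held both motifs, and a match describes letters, not binding. Sequence outside these windows, including distant enhancers, was not searched, so a window without a match does not show that a gene lacks such sites. The stretches printed are the 250 bases upstream of the start, 5′ to 3′ on the gene's strand. ANXA3 lies at chr4:78551520-78551769 (plus strand, 64.0% GC), ANXA1 at chr9:73151615-73151864 (plus strand, 38.4% GC) and ANXA2 at chr15:60397987-60398236 (minus strand, 78.0% GC). Capitals mark the AP-1-type match, which begins 127 bases before the ANXA2 start.
ANXA3: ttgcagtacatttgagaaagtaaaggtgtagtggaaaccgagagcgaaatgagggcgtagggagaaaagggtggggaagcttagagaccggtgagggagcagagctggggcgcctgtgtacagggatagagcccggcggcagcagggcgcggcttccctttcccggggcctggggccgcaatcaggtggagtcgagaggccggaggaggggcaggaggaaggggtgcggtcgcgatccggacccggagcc
ANXA1: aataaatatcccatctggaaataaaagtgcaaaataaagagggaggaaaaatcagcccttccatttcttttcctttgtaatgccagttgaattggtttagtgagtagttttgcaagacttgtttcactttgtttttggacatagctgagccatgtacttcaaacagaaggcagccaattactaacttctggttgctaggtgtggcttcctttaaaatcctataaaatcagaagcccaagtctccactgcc
ANXA2: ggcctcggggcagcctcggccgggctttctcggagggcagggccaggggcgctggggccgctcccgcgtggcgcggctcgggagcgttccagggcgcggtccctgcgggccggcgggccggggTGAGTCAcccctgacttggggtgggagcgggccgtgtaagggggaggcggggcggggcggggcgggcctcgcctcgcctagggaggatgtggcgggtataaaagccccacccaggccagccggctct
Over the 12 annexin windows the GC content ran from 38.4% (ANXA1) to 78.8% (ANXA5).

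In GRCh37, the coordinates of hg19, the ANXA3 gene spans chr4:79472901-79531605 on the plus strand, and ANXA5 lies on the same chromosome at chr4:122589101-122618150 on the minus strand. ANXA7 (chr10:75134859-75173834), ANXA8 (chr10:48255204-48279200) and ANXA11 (chr10:81910645-81965328) share chromosome 10. ANXA1 is at chr9:75766781-75785309, ANXA2 at chr15:60639333-60695082, ANXA4 at chr2:69871557-70054244 and ANXA6 at chr5:150480267-150537376. The counts are per gene, and the 3′ chemistry places most reads near the ends of the transcripts.

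ANXA1, the formyl peptide receptor ligand, was at 383, 336 and 306 CPM in siCtrl cells, against 284, 182 and 209 CPM in siYAP/TAZ. The groups did not overlap, and siYAP/TAZ replicate 1 was the nearest to the controls. The mean was 65.9% of siCtrl (log2 fold change -0.60, SE 0.18, 95% interval -1.01 to -0.20), and the adjusted p was 0.128 by edgeR. With the replicate number as a block, ANXA1 fell (log2 fold change -0.62, SE 0.12, adjusted p = 0.0099). DESeq2 gave an adjusted p of 0.0524 for ANXA1, and edgeR without siCtrl replicate 2 gave 0.0557. Its receptors were barely detected: FPR1 had 0 counts in siCtrl cells, against 1, 1 and 3 counts in siYAP/TAZ, FPR2 had 0 counts in all 6 libraries, and FPR3 had at most 1.

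ANXA5, the phosphatidylserine-binding member, was at 244, 138 and 196 CPM in siCtrl cells, against 146, 95.5 and 149 CPM in siYAP/TAZ. The groups overlapped because siCtrl replicate 2 was below 2 of the siYAP/TAZ libraries. The mean was 67.4% of siCtrl (log2 fold change -0.57, SE 0.23, adjusted p = 0.246, edgeR). With the replicate block ANXA5 fell by 0.56 on the log2 scale (SE 0.12, adjusted p = 0.0138). It was also past the threshold without siCtrl replicate 2 (log2 fold change -0.75, adjusted p = 0.0269) and with both conflicting libraries left out (-0.58, adjusted p = 0.0431).

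With the block, 3 of 9 annexins were lower (ANXA1, ANXA3 and ANXA5) and 0 higher, while that fit called 5.44% of all genes as lower and 10.1% in either direction. Without siCtrl replicate 2, 2 of 9 members were lower (ANXA3 and ANXA5), beside 6.22% of all genes. With both conflicting libraries left out the same 2 members were lower, beside 4.64% of all genes. DESeq2 called ANXA3 alone among the members, beside 2.57% of all genes called as lower.

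**Figure D2:**
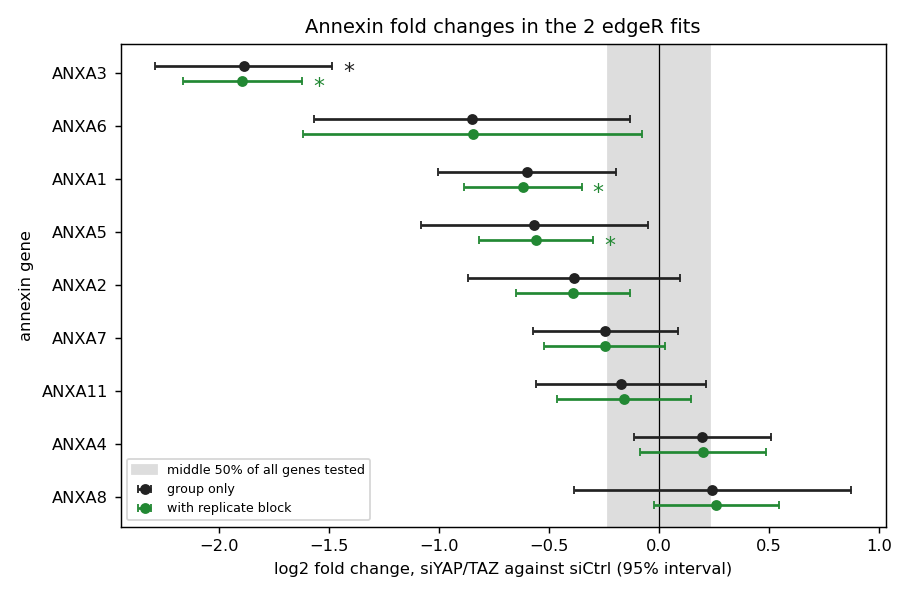
Log2 fold change of each annexin (x axis, siYAP/TAZ against siCtrl) with its 95% interval in the edgeR fit of group alone (black) and with the replicate block (green); asterisks mark an adjusted p below 0.05 and the grey band holds the middle 50% of all genes tested (-0.23 to 0.23). ANXA3 stands apart at -1.89 and is marked in both fits, and ANXA1 and ANXA5 are marked with the block alone.

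ANXA2, which forms a tetramer with S100A10 at the plasma membrane, was at 694, 657 and 966 CPM in siCtrl cells, against 626, 440 and 705 CPM in siYAP/TAZ. The highest siYAP/TAZ library was above 2 of the siCtrl libraries. The mean was 76.5% of siCtrl, with a log2 fold change of -0.39 (95% interval -0.87 to 0.093, adjusted p = 0.379, edgeR; 0.0606 with the block). ANXA2 counts are uncertain in part because processed copies resemble its transcript. The ANXA2 transcript matched ANXA2P2 with 98.3% identity over 1140 bases, ANXA2P1 with 92.3% over 1379 bases and ANXA2P3 with 91.6% over 1376 bases. ANXA2P2 itself had 69, 57 and 98 counts in siCtrl cells, against 43, 33 and 49 in siYAP/TAZ, with no overlap on the CPM scale (log2 fold change -0.87, SE 0.23, adjusted p = 0.0922, edgeR; 0.0270 with the block). ANXA2P3 had 254 to 362 counts in siCtrl cells and 115 to 338 in siYAP/TAZ (log2 fold change -0.52, adjusted p = 0.307). ANXA2P1 had between 7 and 32 counts per library. In the last 300 bases, where most 3′ reads fall, ANXA2P2 had no match, whereas ANXA2P1 aligned over 125 bases and ANXA2P3 over 121. The rest of that window is not shared with these copies, so reads could be split with them over part of it.

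ANXA6, the member with a duplicated core, was the scarcest. Its counts were 18, 19 and 23 for siCtrl, against 11, 11 and 12 for siYAP/TAZ, which is 5.17, 5.86 and 5.78 CPM against 2.49, 3.64 and 3.26 CPM. The groups did not overlap, yet the estimate was imprecise (log2 fold change -0.85, SE 0.32, 95% interval -1.57 to -0.13, adjusted p = 0.215, edgeR; 0.153 with the block).

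ANXA7, or synexin, which fuses membranes in the presence of calcium, was at 75.8, 65.7 and 79.9 CPM in siCtrl cells, against 68.7, 54.9 and 63.1 CPM in siYAP/TAZ (log2 fold change -0.25, 95% interval -0.58 to 0.085, adjusted p = 0.422, edgeR). An antisense lncRNA overlaps 105 exonic bases of ANXA7, and whether the counting used strand is not given in the sources used here. ANXA11, which tethers RNA granules to lysosomes and binds PDCD6, was at 63.5, 95.4 and 73.1 CPM against 70.0, 74.0 and 61.5 CPM. Its log2 fold change was -0.17 (95% interval -0.56 to 0.21, adjusted p = 0.651) and turned to 0.0045 without siCtrl replicate 2, the library with its highest value. ANXA4, an epithelial annexin, was at 78.1, 94.7 and 85.2 CPM in siCtrl cells, against 96.1, 90.2 and 109 CPM in siYAP/TAZ (log2 fold change 0.20, 95% interval -0.11 to 0.51, adjusted p = 0.498). For all 3 genes the groups overlapped and the intervals included 0.

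ANXA8, known from stratified epithelia, had the widest relative spread of the abundant members, with 222, 121 and 248 CPM in siCtrl cells, against 216, 173 and 311 CPM in siYAP/TAZ. Replicate 2 was the lowest in both groups and replicate 3 the highest. The log2 fold change was 0.24 (95% interval -0.39 to 0.87, adjusted p = 0.704, edgeR), and it was -0.0079 when siCtrl replicate 2 was left out and -0.018 when siYAP/TAZ replicate 3 was. The last 300 bases of the ANXA8 transcript are identical to those of ANXA8L1 and ANXA8L2, so its 3′ reads cannot be assigned to 1 copy. On the same strand, AL591684.1, annotated as protein coding, shares 1970 exonic bases with ANXA8 and RP11-301J7.8 shares 233. No row was matched to ANXA8L1 by name, and how the counting treated these copies is not given in the sources used here. Rows without a matched symbol were not assigned to a gene. Among them, Entrez ID 244 was at 14.6, 15.7 and 22.6 CPM in siCtrl cells, against 20.9, 22.5 and 40.0 CPM in siYAP/TAZ. Whether such a row is a copy of ANXA8 was not tested. The search for copies covered annexin transcripts and the loci of ANXA2P1, ANXA2P2 and ANXA2P3 alone. Within it, no annexin apart from ANXA2 and ANXA8 had a matching copy in its last 300 bases, which left 7 members without one. Copies elsewhere in the genome were not searched for.

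Within replicate numbers, ANXA3 had log2 ratios of -1.95, -1.97 and -1.78. In all, 6 annexins were lower in siYAP/TAZ in all 3 pairs (ANXA1, ANXA2, ANXA3, ANXA5, ANXA6 and ANXA7), which is 66.7% of the members beside 22.8% of all genes tested. None was higher in all 3 pairs. ANXA1 differed most in pair 2 (-0.88, against -0.43 and -0.55), whereas ANXA5 differed most in pair 1 (-0.75, against -0.53 and -0.40). Replicate 2 held the lowest value of both groups for 5 of 9 members (ANXA2, ANXA3, ANXA5, ANXA7 and ANXA8), beside 19.2% of all genes.

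**Figure D3:**
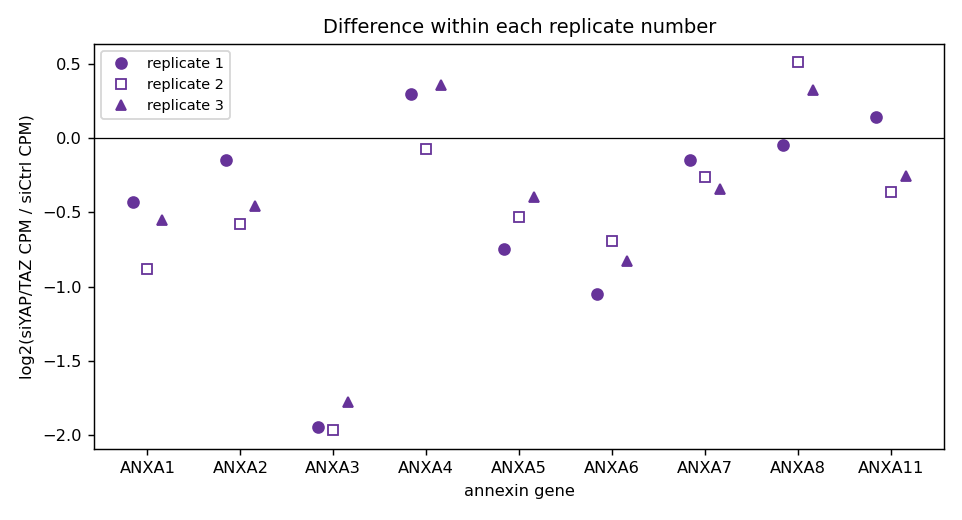
Log2 ratio of the siYAP/TAZ to the siCtrl level (y axis) of each annexin within replicate numbers 1 (circles), 2 (squares) and 3 (triangles). The ANXA3 ratios lie between -1.97 and -1.78, 6 annexins are below 0 in all 3 pairs, and ANXA4, ANXA8 and ANXA11 have ratios on both sides of 0.

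Summed over the 9 genes, annexin mRNA made up 0.200%, 0.158% and 0.217% of all counts in siCtrl cells, against 0.159%, 0.109% and 0.164% in siYAP/TAZ, so the groups overlapped. Within replicate numbers the summed level was lower in siYAP/TAZ in all 3 pairs, at 1949 against 1556 CPM, 1645 against 1147 CPM and 2116 against 1656 CPM. The mean summed level was 1903 ± 239 CPM in siCtrl cells, against 1453 ± 270 CPM in siYAP/TAZ (SD, n = 3). The make-up of this sum was dominated by ANXA2 in both groups, at 40.4% ± 5.05 and 40.4% ± 2.09 of annexin counts. ANXA3 made up 9.37%, 8.03% and 7.36% of annexin counts in siCtrl cells, against 3.04%, 2.94% and 2.74% in siYAP/TAZ, without overlap. ANXA8 took 11.4%, 7.35% and 11.7% in siCtrl cells, against between 13.9% and 18.8% in siYAP/TAZ, also without overlap, although its level overlapped between the groups. ANXA4 was likewise higher in share without overlap, from 4.01%, 5.76% and 4.03% to 6.17%, 7.87% and 6.60%, with overlapping levels. The share of ANXA1 was 18.2% ± 3.24 and 15.6% ± 2.83. Shares add to a fixed total, so a smaller share of 1 member raises those of the others.

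**Figure D4:**
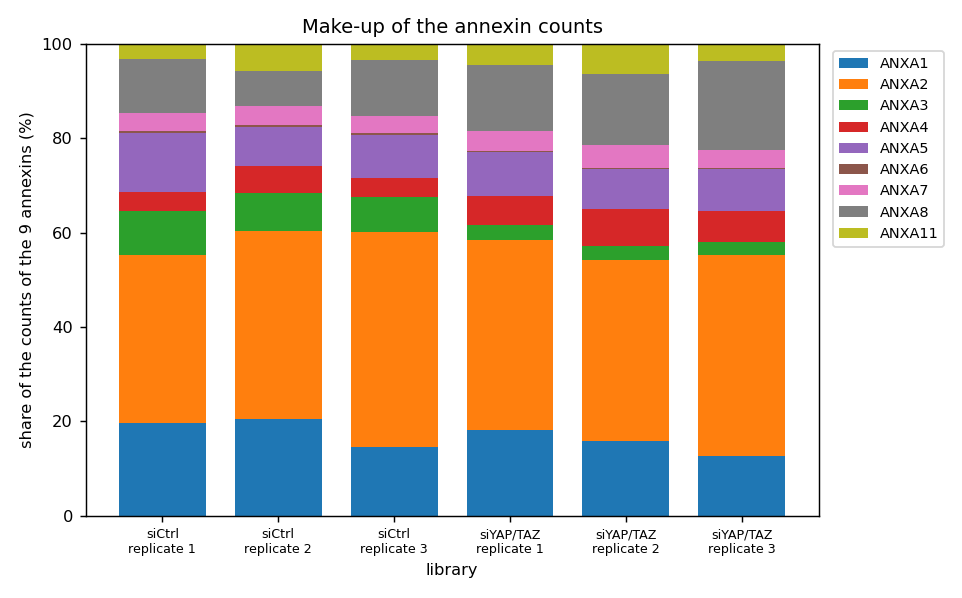
Share of each annexin in the summed annexin counts (percent, y axis) of each of the 6 libraries. The ANXA3 band narrows from between 7.36% and 9.37% in siCtrl to between 2.74% and 3.04% in siYAP/TAZ, and the ANXA8 band is wider in siYAP/TAZ.

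Of the annexin genes outside the 9, ANXA9 passed the filter, with 18 to 28 counts per library and a log2 fold change of 0.034 (adjusted p = 0.972, edgeR). ANXA10 and ANXA13 had at most 4 counts per library, and ANXA2R, the ANXA2 receptor gene, at most 3, so none of these was tested.

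The other genes of annexin biology were taken as 4 lists, with 43 genes of which 37 were tested. By edgeR 1 of the 37 changed, beside 1.96% of all genes. It was the plasminogen activator PLAT, which assembles with plasminogen on ANXA2 at the cell surface. PLAT was at 48.8, 46.0 and 51.5 CPM in siCtrl cells, against 117, 119 and 124 CPM in siYAP/TAZ, and rose by 1.30 on the log2 scale (SE 0.13, adjusted p = 0.0032). With the block, 4 of 37 were lower and 2 higher, beside 5.44% of all genes lower and 10.1% in either direction. Of the 11 binding partners tested, the median log2 fold change was 0.097, and with the block S100A10 fell while PLAT and S100A4 rose. DESeq2 called the same 3 partners in the same directions, beside 587 of 12933 genes in either direction.

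S100A10, the light chain that joins a pair of ANXA2 molecules, was at 389, 319 and 467 CPM in siCtrl cells, against 218, 214 and 302 CPM in siYAP/TAZ. The groups did not overlap, and the log2 fold change was -0.68 (SE 0.19, adjusted p = 0.103, edgeR; 0.0039 with the block and 0.0259 by DESeq2). S100A4, a calcium sensor linked to cell motility, was at 8.90, 11.1 and 11.1 CPM against 17.0, 31.4 and 24.2 CPM (log2 fold change 1.21, SE 0.27, adjusted p = 0.0546; 0.0072 with the block). S100A11, the partner of ANXA1, had a log2 fold change of -0.16 (adjusted p = 0.588), S100A6 one of 0.20 (adjusted p = 0.609) and PDCD6, the partner of ANXA11, one of 0.097 (adjusted p = 0.744).

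Of the 10 membrane repair genes tested, none changed by edgeR on group alone, and the median log2 fold change was -0.07. In that fit 1 was lower at an unadjusted p below 0.05, beside 9.27% of all genes. DESeq2 called 0 of the 10, and with the block 2 of the 10 fell, beside 5.44% of all genes. MYOF, a ferlin of membrane fusion, was at 112, 132 and 104 CPM in siCtrl cells, against 75.2, 91.6 and 69.9 CPM in siYAP/TAZ (log2 fold change -0.56, adjusted p = 0.103; 0.0127 with the block). CAV1, the caveolar coat protein, was at 1055, 697 and 1042 CPM against 876, 484 and 790 CPM (log2 fold change -0.38, adjusted p = 0.459; 0.0433 with the block), with replicate 2 lowest in both groups. Of the 9 genes of phosphatidylserine exposure, which provide or hide the lipid that ANXA5 binds, none changed by edgeR on group alone. In that fit 2 were lower and 1 higher at an unadjusted p below 0.05, beside 9.27% and 8.40% of all genes. DESeq2 called 1 of the 9, PLSCR1 as lower (adjusted p = 0.0223), beside 2.57% of all genes called as lower. The scramblase PLSCR1 was at 67.5, 86.4 and 72.4 CPM against 47.1, 50.6 and 45.1 CPM (log2 fold change -0.66, adjusted p = 0.0554; 0.0104 with the block). Of the 7 copines and extended synaptotagmins tested, which also bind membranes through calcium, none changed in either edgeR fit and 0 were past an unadjusted p of 0.05 on group alone, and DESeq2 called 0.

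The genes whose levels tracked ANXA3 most closely over the 6 libraries were KRT7 (Pearson r 0.998), NUP43 (0.996), CCBE1 (0.995), ZNF273 (0.995) and MRPS30 (0.994), from log2 CPM of all genes tested. The points share the 2 groups and the library scaling. Their own log2 fold changes ranged widely, with KRT7, a keratin of simple epithelia, at -0.97 (adjusted p = 0.0107), CCBE1, a secreted matrix protein of lymphatic growth, at -3.27 (adjusted p = 0.00117) and NUP43, a nuclear pore protein, at -0.34 (adjusted p = 0.281).

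**Figure D5:**
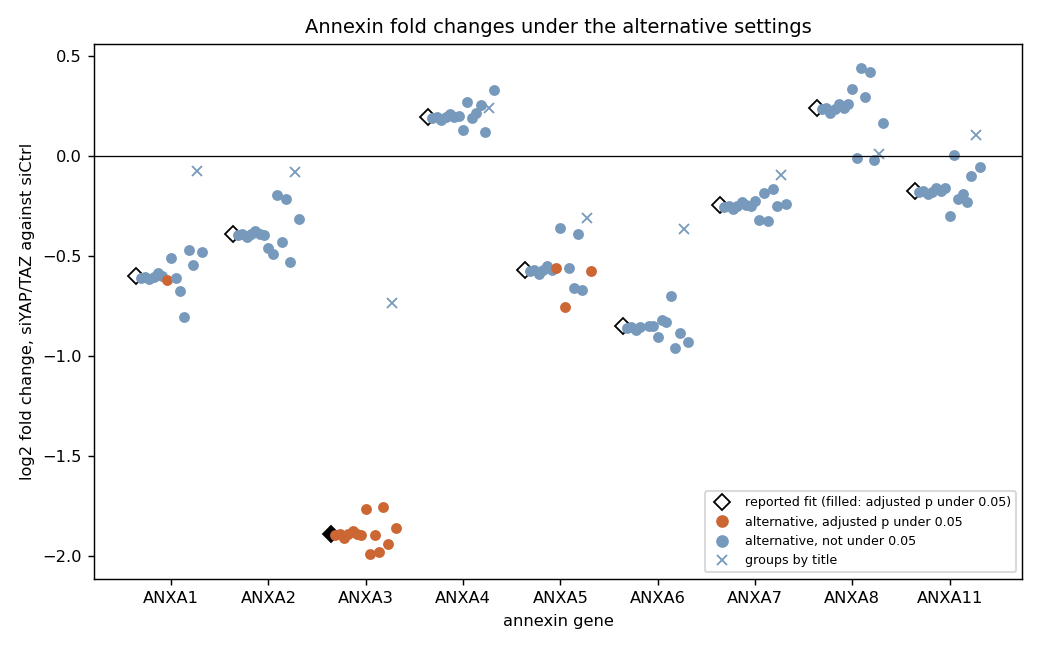
Log2 fold change of each annexin (y axis) in the reported edgeR fit (diamonds) and 15 alternative settings (points, with crosses for groups by title); orange marks an adjusted p below 0.05. ANXA3 lies between -1.99 and -1.75 in 14 alternatives and at -0.74 by title, while ANXA8 and ANXA11 cross 0.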

How the data were processed

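RNA from MCF10A cells was made into QuantSeq 3′ mRNA-Seq libraries, 3 for siCtrl and 3 for siYAP/TAZ. The authors deposited raw counts per Entrez gene with no normalisation. The submitters' processing notes name cutadapt 4.2, Bowtie2 2.3.5.1 and hg19, and the annotation and the use of strand in counting are not given in the sources used here. Symbols came from RefSeq gene tables (23308 of 23459 IDs, 99.7% of counts), gene coordinates and transcripts from GENCODE lifted to GRCh37, and promoter sequences from RefSeq GRCh38.p14. Groups and replicate numbers followed the description field. All value columns were used.

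Genes were filtered with filterByExpr, leaving 12510 (99.5% of counts), scaled by TMM and tested with the edgeR 4.0.16 quasi-likelihood test on group alone (R 4.3.3), with Benjamini-Hochberg adjustment over all genes tested. The code was tested on simulated counts with a single dispersion, no replicate effect and no outlying library. That test therefore does not cover the spread between the libraries used here. Replicate numbers from the description field were used to pair the libraries. Deviations from the group means of same-numbered libraries correlated at 0.416, 0.345 and 0.129 for numbers 1, 2 and 3. No values for libraries with different numbers are given beside them, so they cannot show that the numbers mark true pairs. A fit with the replicate number as a block is given where it changes a call. Counts of libraries in a group differed by more than sampling noise (chi-square per degree of freedom 5.42 to 17.6). Alternatives were DESeq2 1.42.0, other scalings and filters, robust dispersion, leaving out each library, groups by title, and leaving out both libraries with conflicting labels. Likeness used Pearson's r of log2 CPM with a prior count of 2. Named genes were all members, the other annexin genes, YAP1, WWTR1, 4 partner genes and list genes past an adjusted p of 0.05 in either edgeR fit. The 5 genes closest to a member that passed are also named, all with folds. Marker genes DCN, PDGFRA, CD14, PTPRC, CD3E, LYZ, PECAM1, VWF and CDH5 and the receptors FPR1, FPR2 and FPR3 were named after their values were seen. The members and gene lists were chosen with earlier results of these data known. A comparison of annexin protein sequences was planned and not run.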

Additional observations from a re-analysis of the deposited data

How the results depend on the processing

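The reported fit called 1 annexin as changed, the lower ANXA3. The count of annexins changed, all of them lower, was 3 with the replicate block, 2 with both conflicting libraries left out, 0 with groups by title and between 1 and 2 when 1 library was left out, with 2 for siCtrl replicate 2. For all genes the 245 calls became 587 with DESeq2, 556 without the low-count filter, 1263 with the replicate block, 1183 with both conflicting libraries left out and 0 by title (464 at an unadjusted p below 0.05 by edgeR, with no annexin among them), and ranged from 16 (without siCtrl replicate 3) to 1579 (without siCtrl replicate 2) when 1 library was left out. Without siCtrl replicate 1, siYAP/TAZ replicate 2 and siYAP/TAZ replicate 3 the counts were 92, 71 and 18. For the 37 genes of the 4 lists, 1 call became 4 with DESeq2, 4 without the filter, 2 with library size alone, 2 with robust dispersion, 6 with the replicate block, 5 with both conflicting libraries left out, 0 by title and 1 to 4 when 1 library was left out (4 without siCtrl replicate 2). Both targeted genes were called as lower in the reported fit, 0 were called by title and 0 to 2 with 1 library left out (0 without replicate 3 of either group and without replicate 2 of siYAP/TAZ, 1 without replicate 1 of either group), while their folds stayed between -0.84 and -0.77 for YAP1 and between -0.75 and -0.62 for WWTR1, at an unadjusted p below 0.05 in all 6 such fits. The fold change of ANXA8 turned from 0.24 to -0.0079 when siCtrl replicate 2 was left out and -0.018 when siYAP/TAZ replicate 3 was, within a range of -0.018 to 0.44 over the libraries left out. That of ANXA11 turned from -0.17 to 0.0045 without siCtrl replicate 2, within -0.30 to 0.0045, and to 0.11 by title. The causes of these moves were not tested. Of the single annexin values, 125 kept their direction and side of the threshold, 4 moved past it, 1 lost it and 4 turned. The replicate block changed no other annexin call than those of ANXA1 and ANXA5. The precision of ANXA6, at 11 to 23 counts per library, is the lowest of the members (SE 0.32).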
